A study of Mus musculus with 15 samples.

Results

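The type I interferon stimulated genes described here are 42 genes chosen from a written list of symbols, each of which had a row in both the deposited count table and the deposited table of log2 values. All 42 listed symbols were found among the 32544 symbols of the count table, and all 42 were among the 17477 genes that passed the expression filter and were tested. RNA sequencing of mouse colon covered 3 genotypes of Tert, the gene of the reverse transcriptase subunit of telomerase, with and without experimental colitis. The genotypes were wild type (TERT+/+, here WT), TERTVAA (here VAA), an allele whose product lacks enzymatic activity by the study's account, and knockout (TERT-/-, here KO). Mice were 8 to 12 weeks old. The DSS groups drank 3% dextran sulfate sodium, a polymer that injures the colonic epithelium, for 4 days, then plain water for 4 days, and colon was taken at day 8. Each genotype had 2 untreated and 3 DSS libraries, 15 in all. The series title places the question in the cGAS and STING pathway, which senses DNA in the cytosol and switches on type I interferon. The sources used here give neither strain nor litter. No label says that the samples of a group came from separate animals, so every P value measures only how these samples spread, which may be technical.

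Type I interferons (the interferon alpha family, interferon beta and relatives) are secreted when a cell senses foreign or misplaced nucleic acid, and they act through the receptor made of Ifnar1 and Ifnar2. Through the receptor's kinases Jak1 and Tyk2, Stat2 is activated, joins Irf9 and is brought to interferon-stimulated response elements (ISREs) in the promoters of the induced genes. The induced proteins bind or degrade foreign RNA, edit or modify proteins, block virus entry, and feed back on the pathway. Interferon gamma uses another receptor and acts mainly at gamma-activated sites (GAS), and many genes respond to both kinds of interferon. In the gut the epithelium, macrophages and lymphocytes all respond to interferons, and in bulk tissue fewer cells of a type and less RNA per cell cannot be told apart.

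The promoters of 6 members are shown because these members carry ISRE matches upstream of the start site and include called and uncalled members and the neighbours Ifit3 and Ifit3b. Sequences are RefSeq's, on build GRCm38.p6, each giving the 250 bases before an annotated start on the gene's own strand, 5′ to 3′, and capitals mark every match to the ISRE core (GAAA, any 2 bases, then GAAA) on either strand. The intervals are chr4:156200819-156201068 for Isg15 (minus strand), chr19:34583279-34583528 for Ifit3 (plus), chr19:34607707-34607956 for Ifit3b (plus), chr5:120777660-120777909 for Oas3 (minus), chr5:120907526-120907775 for Oas1a (minus) and chr8:71537473-71537722 for Bst2 (minus).
Isg15: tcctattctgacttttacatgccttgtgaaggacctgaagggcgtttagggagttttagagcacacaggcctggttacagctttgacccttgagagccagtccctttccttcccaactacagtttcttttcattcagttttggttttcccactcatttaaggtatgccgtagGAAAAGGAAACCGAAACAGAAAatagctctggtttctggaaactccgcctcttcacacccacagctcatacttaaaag
Ifit3: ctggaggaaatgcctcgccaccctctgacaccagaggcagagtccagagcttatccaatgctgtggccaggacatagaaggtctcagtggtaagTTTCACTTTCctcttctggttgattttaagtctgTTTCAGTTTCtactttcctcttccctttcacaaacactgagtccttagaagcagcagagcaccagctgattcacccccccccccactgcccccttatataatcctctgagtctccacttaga
Ifit3b: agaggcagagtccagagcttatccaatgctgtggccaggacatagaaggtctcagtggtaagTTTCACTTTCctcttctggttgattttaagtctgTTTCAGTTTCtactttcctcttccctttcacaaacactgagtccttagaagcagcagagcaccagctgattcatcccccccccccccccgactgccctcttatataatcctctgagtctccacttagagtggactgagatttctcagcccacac
Oas3: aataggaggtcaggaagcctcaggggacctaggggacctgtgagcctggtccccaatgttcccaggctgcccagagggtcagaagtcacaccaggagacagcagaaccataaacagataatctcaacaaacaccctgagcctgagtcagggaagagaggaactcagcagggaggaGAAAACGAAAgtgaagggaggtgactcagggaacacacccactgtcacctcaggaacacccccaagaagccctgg
Oas1a: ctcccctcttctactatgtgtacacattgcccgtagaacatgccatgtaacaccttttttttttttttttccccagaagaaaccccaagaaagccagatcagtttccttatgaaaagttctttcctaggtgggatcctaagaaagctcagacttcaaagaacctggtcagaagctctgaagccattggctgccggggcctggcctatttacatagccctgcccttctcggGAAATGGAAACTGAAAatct
Bst2: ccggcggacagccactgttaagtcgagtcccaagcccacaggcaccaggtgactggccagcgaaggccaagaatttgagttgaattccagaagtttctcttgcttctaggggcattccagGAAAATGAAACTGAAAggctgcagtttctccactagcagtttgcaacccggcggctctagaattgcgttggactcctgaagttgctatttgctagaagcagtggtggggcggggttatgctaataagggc

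Isg15 held 3 overlapping matches between 78 and 57 bases before the start, with matched bases GAAAAGGAAA, GAAACCGAAA and GAAACAGAAA. Ifit3 and Ifit3b held the same pair, TTTCACTTTC and TTTCAGTTTC, 156 and 122 bases before the start in Ifit3 and 188 and 154 bases before it in Ifit3b. Searched on both strands over windows of 300 bases (250 before to 50 after the start), the ISRE core was found in 16 of the 40 windows of the 32 members that matched the RefSeq table (40%), against 1131 of 32851 windows of all genes (3.44%). Counted by gene, 15 of 32 members held it (46.9%), against 3.99% of all genes. The core TTCNNNGAA of the GAS, which reads the same on both strands, was found in 8 of 40 member windows (20%) and in 8.3% of all windows, and in Bst2 it overlapped the ISRE match. Among the members called after DSS in KO colon (below), 6 of the 16 with a promoter sequence held the ISRE core, and among those not called 9 of 16 did. A match is a string of letters, not a measured binding site. Oas1b, Oas2, Mx1, Mx2, Usp18, Dhx58, Ifi27l2a, Rtp4, Parp9 and Parp14 were not matched.

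**Figure D1:**
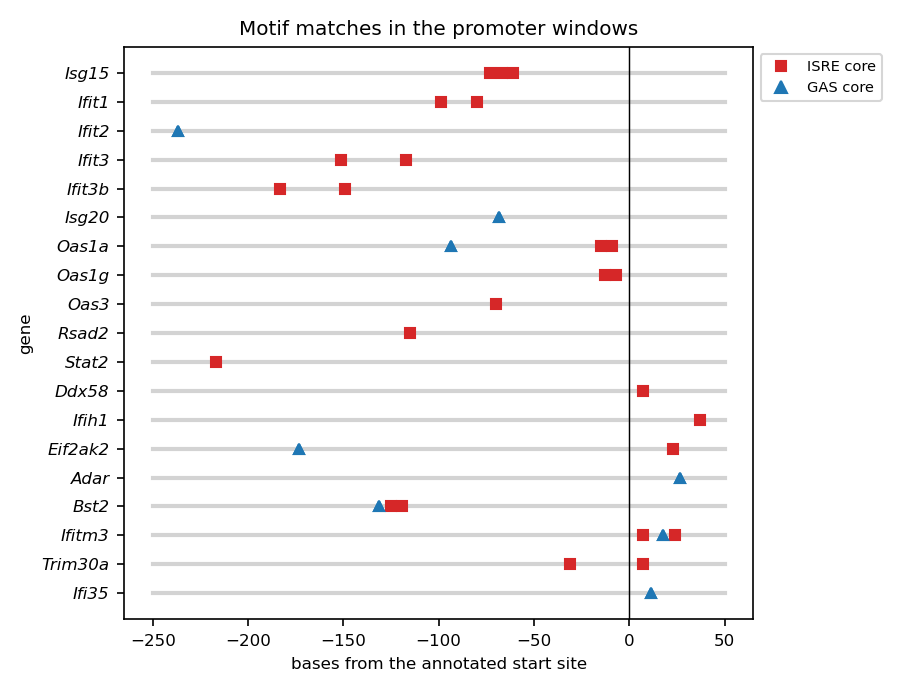
Positions of ISRE core (red squares) and GAS core (blue triangles) matches in bases from the annotated start site (vertical line) for the members with at least 1 match; grey lines are the windows searched, from 250 bases before to 50 after the start. ISRE matches of Isg15, Ifit1, Ifit3, Ifit3b, Oas1a, Oas1g, Oas3, Rsad2, Stat2 and Bst2 lie before the start, those of Ddx58, Ifih1, Eif2ak2 and Ifitm3 after it, and Trim30a has one on each side from different annotated starts.

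Library totals ran from 10.6 to 17.5 M counts. Tert had 0 or 1 count in each KO library and 7 to 40 in each WT or VAA library. Y-linked Ddx3y marked 2 libraries as male (868 and 914 counts, against 5 to 20 elsewhere): replicate 2 of untreated WT and replicate 2 of untreated KO, so sex was not balanced between untreated and DSS colon. Replicate 3 of VAA DSS had the smallest total and stood apart from its group, being the highest of the 3 for 41.4% of all genes and the lowest for 41.7%. Epithelial markers summed to between 9150 and 15300 CPM in every library, so epithelium was present in each. CPM here are counts per M after scaling each library by its trimmed mean of M values, and they order libraries for a gene, not genes. The test was edgeR's quasi-likelihood test on all 15 libraries, with Benjamini-Hochberg adjustment over the 17477 genes, and called means an adjusted P under 0.05. Every adjusted P below comes from it.

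In KO colon the interferon stimulated genes were higher in DSS than in untreated libraries almost throughout. Of 42 members, 22 were called higher and 0 lower, where 5.59% of all genes tested were called higher and 5.06% lower (10.7% in either direction). The median log2 fold change of the members was 1.38, against 0.00 over all genes, and 41 of 42 values were above 0. In 38 members every KO DSS library was above both untreated KO libraries, as in 24.1% of all genes. Isg20, a 3′ exonuclease of RNA, went the other way: every KO DSS library was below both untreated ones, as in 24% of all genes, with a log2 fold change of -0.43 ± 0.29 (SE) that was not called (adjusted P = 0.36). Oas1b, Ifih1 and Ifi27l2a were the 3 members whose KO groups overlapped.

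The same comparison called 4 members in WT colon (14.1% of all genes were called higher and 12.5% lower, 26.6% in either direction) and 2 in VAA colon (10.9% higher and 9.54% lower, 20.4% in either direction), all of them higher. Median log2 fold changes of the members were 0.41 in WT and 0.26 in VAA, against -0.01 and 0.06 over all genes. The WT median was 0.14 without WT DSS replicate 1. The VAA median was -0.06 without VAA DSS replicate 2 (16 of 42 above 0, against 33 with all libraries), 0.01 without untreated VAA replicate 2 (21 of 42) and 0.74 without untreated VAA replicate 1 (37 of 42). Groups did not overlap for 12 members that were higher and 2 that were lower in WT (31.9% and 31.1% of all genes), and for 8 higher and 0 lower in VAA (21% and 19.7%). The WT and VAA shares of called members were thus below the share among all genes, and the KO share above it. The log2 fold change was largest in KO for 36 members, in WT for 4 and in VAA for 2.

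**Figure D2:**
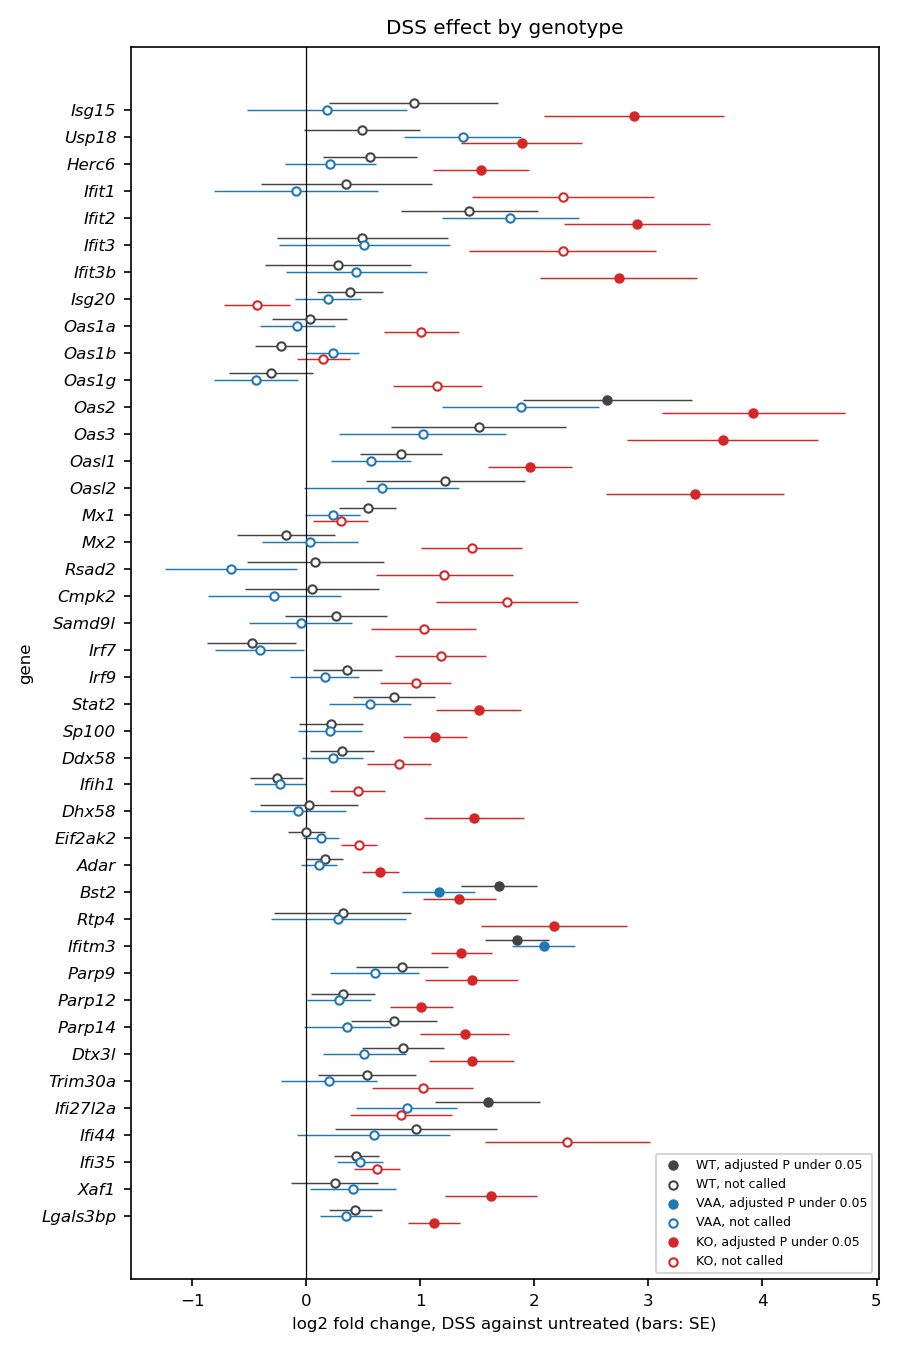
Log2 fold change of each member, DSS against untreated, in WT (grey), VAA (blue) and KO (red), with bars of 1 SE; filled points passed an adjusted P under 0.05. KO points lie above 0 for 41 of 42 members and are filled for 22, WT points are filled for 4 and VAA points for 2.

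The number called rested on single libraries more than the direction did. Without replicate 1 of untreated KO it was 0 (2.24% of all genes were then called in either direction, against 10.7% with all libraries), and without replicate 2 of untreated KO it was 2 (3.9% of all genes). Without KO DSS replicate 1, 2 or 3 it was 7, 13 and 13 (5.96%, 4.88% and 5.87% of all genes). It rose to 34 without VAA DSS replicate 2 (13.2% of all genes) and to 36 without VAA DSS replicate 3 (21.6%), libraries outside this comparison that share its fit. With sex as a covariate 6 members were called (6.79% of all genes), and without both male libraries 2 were (2.99%). In the fits named so far, the share of all genes called was below that of the main fit where fewer members were called. It was above it where more were. DESeq2 called 33 members with 7.63% of all genes, and edgeR without the expression filter called 26 with 7.46%. In these 2, which cover more genes than the main fit, the count rose while the share fell. Each of the 22 calls was lost in at least 1 other fit, from 1 of 23 for Ifitm3 and Lgals3bp to 15 of 23 for Dhx58. In each of these fits 41 of 42 log2 fold changes were above 0, and their median lay between 1.16 and 1.55.

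Isg15, Herc6 and Usp18, the genes of the modifier ISG15 and its enzymes, were each called higher after DSS in KO colon. In that comparison 22 of 42 members (52.4%) and 5.59% of all genes were called higher. The role groups described here and below were not tested as sets. Isg15 encodes a ubiquitin-like protein that is attached to other proteins. It measured 2.13 and 4.43 CPM in untreated KO and 40.7, 15.8 and 15.2 CPM in KO DSS, 5.61 and 3.43 in untreated WT and 15.7, 5.83 and 4.66 in WT DSS, and 14.4 and 5.2 in untreated VAA and 8.43, 20.5 and 4.13 in VAA DSS. Every KO DSS library was above both untreated KO libraries, while the WT and VAA groups overlapped. The log2 fold change was 2.87 ± 0.79 in KO (adjusted P = 0.037), 0.94 ± 0.74 in WT (0.37) and 0.18 ± 0.70 in VAA (0.89). Herc6, the ligase that attaches ISG15 in mouse, rose by 1.53 ± 0.42 in KO (adjusted P = 0.037). Usp18, which removes ISG15 and dampens the receptor's signal, rose by 1.89 ± 0.53 in KO (adjusted P = 0.04, lost in 9 of 23 other fits), and in VAA all 3 DSS libraries were above both untreated ones without a call (1.37 ± 0.51, adjusted P = 0.078).

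Members of the IFIT family bind RNA whose end marks it as foreign, and 2 of 4 were called in KO colon. Ifit2 measured 6.47 and 7.07 CPM in untreated KO and 71, 40.6 and 39.5 in KO DSS, against 6.43 and 10.8 then 37.6, 14.1 and 18.1 in WT, and 16 and 7.92 then 27.1, 78.6 and 18.1 in VAA. The DSS libraries were above the untreated ones in all 3 genotypes. Ifit2 rose by 2.90 ± 0.64 in KO (adjusted P = 0.014), and the values of 1.43 ± 0.60 in WT (0.097) and 1.79 ± 0.60 in VAA (0.0518) were not called. Ifit1 had a log2 fold change of 2.25 ± 0.80 in KO (adjusted P = 0.089) with groups that did not overlap (7.11 and 7.14 against 52.8, 22.6 and 26.3 CPM).

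Ifit3 and Ifit3b are neighbours on chromosome 19 that share most of their sequence: 61.8% of the 31-base words of annotated Ifit3 transcripts also occur in Ifit3b, so their estimated counts may have been split between them. Ifit3 measured 2.07 and 3.28 CPM in untreated KO and 18.9, 8.12 and 11.1 in KO DSS (2.25 ± 0.82, adjusted P = 0.098). Ifit3b measured 2.07 and 2.5, then 28.5, 8.19 and 8.92 (2.74 ± 0.69, adjusted P = 0.026). One of the pair was called and the other not, on values of like size. Summed before the fit, the pair measured 4.14 and 5.78, then 47.5, 16.3 and 20 CPM, and rose by 2.49 ± 0.74 in KO (adjusted P = 0.0465). In WT the sum was 9.78 and 9.36 untreated, then 23.5, 7.43 and 7.32, and in VAA it was 18.7 and 7.67, then 11.5, 34.6 and 8.74, with overlapping groups in both.

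Active OAS enzymes make oligoadenylates on double-stranded RNA and so switch on an RNase. The OAS and OAS-like genes, not all of which need have this activity, formed with Isg20 a group of 8. Of these, 4 were called in KO colon. Oas2 had the highest log2 fold change of the 42 members. It measured 1.36 and 1.64 CPM in untreated KO and 35.9, 17 and 15.3 in KO DSS, 3.55 and 1.41 then 25.5, 13.2 and 7.91 in WT, and 7.37 and 2.56 then 14.4, 32.7 and 7.59 in VAA. No DSS library overlapped the untreated libraries of its genotype. Oas2 rose by 3.92 ± 0.80 in KO (adjusted P = 0.0092) and 2.64 ± 0.74 in WT (0.019), and the 1.88 ± 0.69 in VAA was not called (0.074). The WT call was lost in 5 of 23 other fits, among them those without either untreated WT library or without WT DSS replicate 1, with adjusted P values from 3.3e-04 to 0.18.

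Oas3 measured 4.98 and 5.14 CPM in untreated KO and 95.9, 47.4 and 47.9 in KO DSS, against 10.7 and 3.84 then 34.4, 14.9 and 12.7 in WT, and 21.6 and 6.13 then 18.6, 56.7 and 9.03 in VAA. All KO DSS libraries were above all WT DSS libraries, while VAA DSS replicate 2 reached into the KO range. Oas3 rose by 3.65 ± 0.84 in KO (adjusted P = 0.017), and was not called in WT (1.51 ± 0.77, adjusted P = 0.16) or VAA (1.02 ± 0.73, adjusted P = 0.37).

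Oasl1 and Oasl2 are OAS-like neighbours on chromosome 5; Oasl1 is known as a brake on the translation of Irf7. Oasl1 measured 12.7 and 11.1 CPM in untreated KO and 63.3, 36.8 and 39 in KO DSS, 14 and 14.7 then 32.3, 24.2 and 20.3 in WT, and 27.9 and 16.4 then 31.4, 47.8 and 19.5 in VAA. Its KO rise of 1.96 ± 0.37 had the smallest adjusted P of the members in that comparison (0.0066). Oasl2 measured 12.1 and 15 CPM, then 208, 106 and 116 in KO, 39 and 11.4, then 96, 42.5 and 37.7 in WT, and 76.1 and 19.2, then 61, 132 and 32.8 in VAA. It rose by 3.41 ± 0.78 in KO (adjusted P = 0.016), with 1.22 ± 0.70 in WT (0.22) and 0.66 ± 0.68 in VAA (0.55). Both genes were higher in every KO DSS library than in any untreated library of any genotype.

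None of the 3 Oas1 genes was called in any comparison. Oas1a and Oas1g share sequence (68.8% of the words of Oas1a occur in another gene, nearly all in Oas1g), so their split is uncertain. Oas1a measured 33.6 and 40 CPM in untreated KO, 98.7, 59.6 and 64.5 in KO DSS, 47.3, 29.6 and 36.5 in WT DSS and 39.4, 56.5 and 24.4 in VAA DSS. Oas1g measured 22.2 and 27.6, 73, 45.9 and 46.8, 30.3, 21.9 and 23.2, and 25.9, 40.3 and 13.9 CPM in the same order. In both genes the 3 KO DSS libraries were above all 6 other DSS libraries. Their summed counts gave a log2 fold change of 1.07 ± 0.35 in KO (adjusted P = 0.07), which was not called. Oas1b measured 9.51 and 7.57 CPM in untreated KO and 10, 10 and 8.47 in KO DSS, 8.14 and 8.35 then 7.95, 6.75 and 6.61 in WT, and 11.2 and 6.22 then 11, 9.14 and 10.6 in VAA, with 0.15 ± 0.23 in KO (adjusted P = 0.72).

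None of the 5 GTPases and nucleotide enzymes was called in any comparison, although their median log2 fold change after DSS in KO was 1.21. Mx2, a GTPase of the cytoplasm, measured 2.59 and 2.07 CPM in untreated KO and 8.92, 4.43 and 5.8 in KO DSS (1.45 ± 0.44, adjusted P = 0.0534), 3.21 and 4.17 then 4.01, 2.61 and 3.19 in WT, and 6.44 and 2.81 then 2.71, 5.49 and 6.15 in VAA. Mx1, its nuclear relative, measured 20.9 and 15.1 then 22, 21.6 and 23.2 in KO (0.30 ± 0.24, adjusted P = 0.46), 14.5 and 17 then 27.9, 21.8 and 18.9 in WT, and 25.5 and 14.1 then 25.5, 24.3 and 19.5 in VAA. Mx2 groups were apart in KO and overlapped in WT and VAA, while Mx1 groups were apart in KO and WT. Rsad2 and Cmpk2, neighbours on chromosome 12 that together make a chain-terminating nucleotide, had 1.21 ± 0.60 (adjusted P = 0.22) and 1.76 ± 0.62 (0.089) in KO, and Samd9l had 1.03 ± 0.46 (0.17).

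Of the 4 transcription factors and nuclear proteins, Stat2 and Sp100 were called after DSS in KO colon. Stat2, the subunit that ties the ISRE complex to type I signalling, measured 28.3 and 33.6 CPM in untreated KO and 112, 74.2 and 78.6 in KO DSS, 38.2 and 29.3 then 82.2, 52.8 and 38.2 in WT, and 60.1 and 26.1 then 57.7, 81.6 and 51.9 in VAA. KO DSS libraries were apart from untreated KO libraries, and the lowest WT DSS library equalled the higher untreated WT library at this rounding. Stat2 rose by 1.51 ± 0.37 in KO (adjusted P = 0.023). Sp100, a nuclear body protein, rose by 1.13 ± 0.28 (adjusted P = 0.025). Irf9, the DNA-binding subunit of that complex, had 0.96 ± 0.31 in KO (adjusted P = 0.065), 0.36 ± 0.30 in WT (0.41) and 0.16 ± 0.30 in VAA (0.77).

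Irf7, which amplifies interferon gene transcription, was the 1 member called between genotypes under DSS in KO against WT. It measured 140, 64.8 and 67.5 CPM in KO DSS, 47.3, 27.4 and 27.2 in WT DSS and 32.9, 65.9 and 30.2 in VAA DSS, and 38.2 and 41.8, 52.8 and 41.6, and 67.4 and 46.8 in untreated KO, WT and VAA. KO DSS was above WT DSS in every library, and VAA DSS replicate 2 fell within the KO range. Irf7 was higher in KO DSS than in WT DSS by 1.42 ± 0.35 (adjusted P = 0.036) and had 1.07 ± 0.35 against VAA DSS (0.0546). The effect of DSS itself was 1.18 ± 0.40 in KO (adjusted P = 0.078), -0.48 ± 0.39 in WT (0.39) and -0.41 ± 0.39 in VAA (0.51), none of them called. The call against WT was lost in 10 of 23 other fits, with log2 fold changes from 0.97 (without KO DSS replicate 1) to 1.73 (without WT DSS replicate 1) and adjusted P values from 0.0016 to 0.18.

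**Figure D3:**
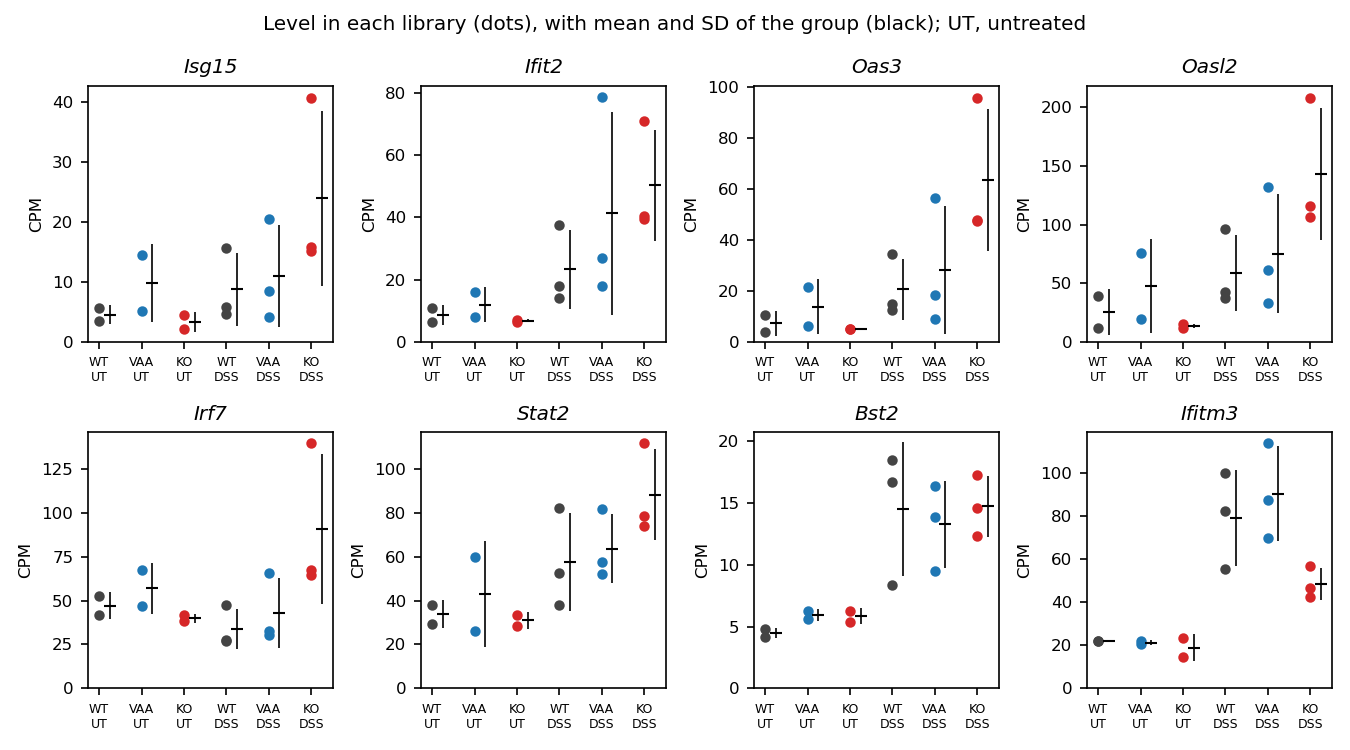
Level in CPM in each library (dots) of 8 members, with group mean and SD (black; n = 2 untreated, UT, and n = 3 DSS per genotype). KO DSS libraries are the highest group for Isg15, Ifit2, Oas3, Oasl2, Irf7 and Stat2 by mean, Bst2 is at similar levels in all DSS groups, and Ifitm3 is lower in KO DSS than in VAA DSS.

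Among the RNA sensors and enzymes of double-stranded RNA, 2 of 5 were called after DSS in KO colon. Adar, which edits adenosine in double-stranded RNA, measured 66.2 and 68.7 CPM in untreated KO and 111, 95.1 and 111 in KO DSS, 80.8 and 68.8 then 98.7, 78.3 and 74.5 in WT, and 84.8 and 83.1 then 88.9, 107 and 75.7 in VAA. The KO groups were apart and the others overlapped. Adar rose by 0.65 ± 0.16 in KO (adjusted P = 0.024), although 15.4% of the words of its transcripts also occur in Chrnb2. Dhx58, a regulator of the RIG-I sensor, rose by 1.47 ± 0.44 (adjusted P = 0.0496), which was the weakest of the 22 calls and was lost in 15 of 23 other fits (adjusted P from 0.0096 to 0.32). The sensors Ddx58 (RIG-I) and Ifih1 (MDA5) had 0.81 ± 0.28 (adjusted P = 0.08) and 0.45 ± 0.24 (0.25), and Eif2ak2, the kinase PKR, had 0.46 ± 0.16 (0.085).

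Among the 3 membrane proteins, Ifitm3 and Bst2 were called after DSS in every genotype, and Rtp4 in KO as well. Ifitm3, which blocks virus entry at endosomes, measured 21.9 and 22 CPM in untreated WT and 100, 82.4 and 55.3 in WT DSS, 22.2 and 20.4 then 70.1, 87.8 and 114 in VAA, and 14.6 and 23.3 then 42.3, 46.8 and 56.9 in KO. Every DSS library was above every untreated library. Ifitm3 rose by 1.85 ± 0.28 in WT (adjusted P = 4.7e-04), 2.08 ± 0.28 in VAA (2.2e-04) and 1.36 ± 0.27 in KO (0.0086). Under DSS it was lower in KO than in VAA by a log2 fold change of -0.89 ± 0.23 (adjusted P = 0.02), the 1 member called in that comparison, where 9.41% of all genes were called lower and 6.01% higher (15.4% in either direction). This call was lost on leaving out VAA DSS replicate 3, on leaving out KO DSS replicate 1 or 2, and when only those groups were fitted, with log2 fold changes from -1.05 to -0.69 and adjusted P values from 0.0043 to 0.085 over 23 fits. Against WT DSS it was -0.70 ± 0.23 (adjusted P = 0.09). Of the words of Ifitm3 transcripts, 20.5% occur in other genes, so part of its count may belong to relatives.

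Bst2 (tetherin), which holds budding virus to the cell surface, measured 4.79 and 4.17 CPM in untreated WT and 18.5, 16.7 and 8.38 in WT DSS, 6.3 and 5.62 then 16.4, 13.9 and 9.51 in VAA, and 5.37 and 6.28 then 17.3, 14.6 and 12.3 in KO. All 9 DSS libraries were above all 6 untreated ones. Bst2 rose by 1.69 ± 0.33 in WT (adjusted P = 0.0027), 1.16 ± 0.32 in VAA (0.022) and 1.34 ± 0.32 in KO (0.021). Rtp4, a receptor transporter, rose in KO (2.17 ± 0.64, adjusted P = 0.0461, lost in 12 of 23 other fits), with 0.32 ± 0.60 in WT (0.73) and 0.28 ± 0.59 in VAA (0.79), and the difference between these effects was not called.

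Of the PARP proteins and ubiquitin ligases, 4 of 5 were called in KO colon and 0 in WT or VAA. Dtx3l, a ubiquitin ligase that works as a pair with Parp9, measured 59.9 and 82.1 CPM in untreated KO and 237, 156 and 190 in KO DSS, 92.5 and 73.7 then 216, 116 and 115 in WT, and 138 and 98.2 then 130, 261 and 115 in VAA. The groups were apart in KO and in WT. Dtx3l rose by 1.45 ± 0.37 in KO (adjusted P = 0.028), with 0.85 ± 0.36 in WT (0.1) and 0.51 ± 0.36 in VAA (0.35). Parp9, Parp14 and Parp12 rose in KO by 1.45 ± 0.41 (adjusted P = 0.039), 1.39 ± 0.39 (0.04) and 1.01 ± 0.28 (0.038), calls that were lost in 11, 9 and 10 of 23 other fits. Trim30a, a ligase that dampens innate signalling in mouse, had 1.02 ± 0.44 (adjusted P = 0.15).

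Of the other 5 induced genes, Lgals3bp and Xaf1 were called in KO and Ifi27l2a in WT. Lgals3bp, a secreted galectin-binding protein, measured 71.3 and 110 CPM in untreated KO and 236, 178 and 176 in KO DSS, 111 and 79.4 then 143, 142 and 102 in WT, and 116 and 94.2 then 137, 149 and 116 in VAA. All 3 KO DSS libraries were above every other library of the series. Lgals3bp rose by 1.12 ± 0.23 in KO (adjusted P = 0.01). Xaf1, linked to cell death, rose by 1.62 ± 0.40 (adjusted P = 0.024). Ifi27l2a measured 5.88 and 3.5 then 19.6, 14 and 8.79 CPM in WT (1.59 ± 0.46, adjusted P = 0.022), 6.87 and 5.2 then 10.2, 16.1 and 6.91 in VAA (0.88 ± 0.44, 0.19), and 3.1 and 6.71 then 8.22, 11.3 and 6.62 in KO (0.83 ± 0.45, 0.26). Its WT call was lost in 4 of 23 other fits: without either untreated WT library, without both male libraries, and without WT DSS replicate 1. Ifi44 and Ifi35 had 2.29 ± 0.72 (adjusted P = 0.058) and 0.62 ± 0.20 (0.062) in KO.

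**Figure D4:**
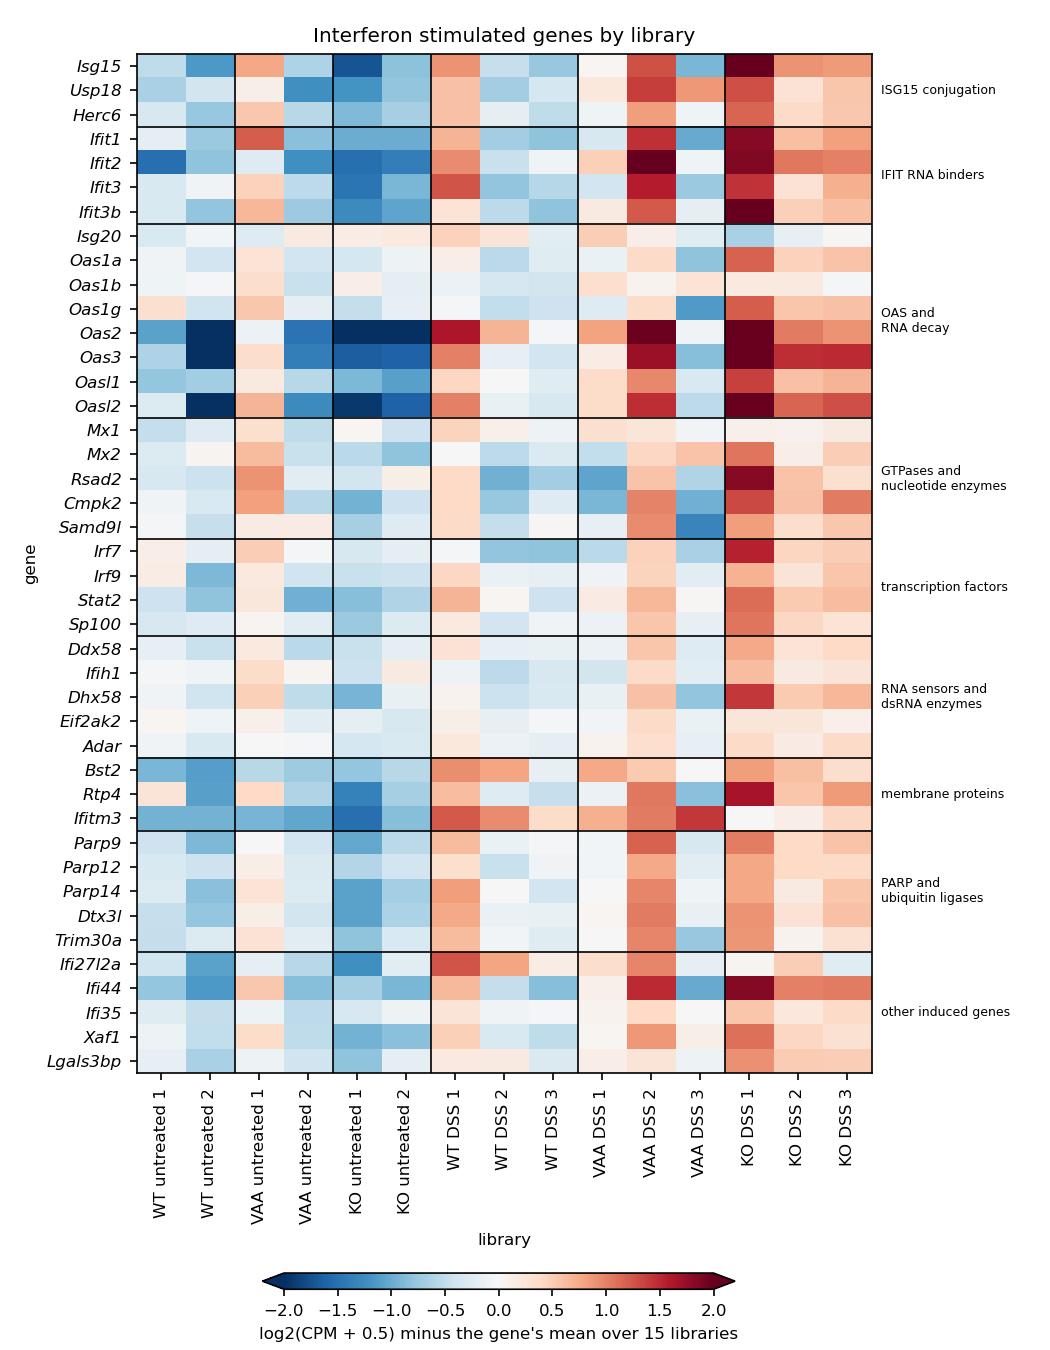
Each member (rows, grouped by role) in each library (columns): log2(CPM + 0.5) minus the gene's mean over the 15 libraries, with colours held at values beyond 2 or -2. KO DSS columns are red for most rows and untreated KO columns blue, and WT DSS replicate 1 and VAA DSS replicate 2 are redder than the other libraries of their groups.

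The members moved together from library to library within a group. WT DSS replicate 1 was the highest of its group for 42 of 42 members (30.3% of all genes), VAA DSS replicate 2 for 36 (33.8%), KO DSS replicate 1 for 37 (36.3%), and untreated VAA replicate 1 was the higher of 2 for 40 (50.3%). Averaged over the 42 members after centring each on its own mean, the log2(CPM + 0.5) level was -0.85 and -0.57 in untreated KO and 1.10, 0.46 and 0.54 in KO DSS. It was -0.33 and -0.65 then 0.52, -0.22 and -0.30 in WT, and 0.26 and -0.53 then 0.02, 0.86 and -0.31 in VAA. KO DSS libraries were above both untreated KO libraries by more than the pooled within-group SD of 0.426. WT DSS libraries were also above both untreated WT libraries, 2 of the 3 by less than that SD. In VAA the treatments crossed, with untreated replicate 1 above DSS replicates 1 and 3. KO DSS had the highest group mean for 36 members and untreated KO the lowest for 32, as in 14.2% and 16.2% of all genes.

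**Figure D5:**
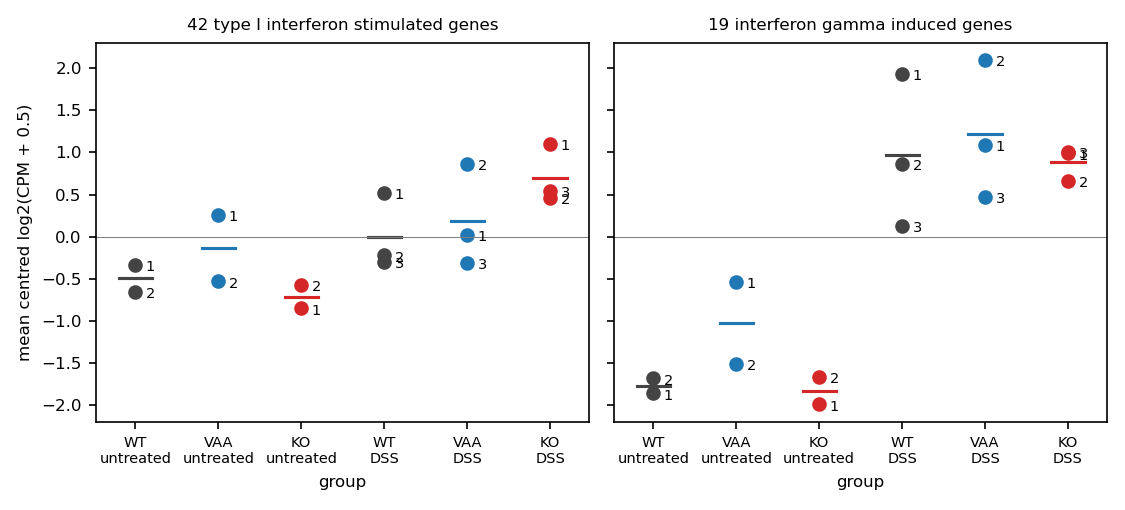
Mean centred log2(CPM + 0.5) per library (points, numbered by replicate; lines are group means) over the 42 members (left) and over 19 interferon gamma induced genes (right). On the left KO DSS lies at 0.46 to 1.10 and overlaps VAA DSS replicate 2 and WT DSS replicate 1; on the right every DSS library lies above every untreated library.

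Between genotypes few members passed the test, and the pairs below share libraries with each other and with the DSS comparisons. Under DSS, KO against WT called 1 of 42 members higher (Irf7) and 0 lower, where 3.21% of all genes were called higher and 2.46% lower (5.67% in either direction). The median log2 fold change of the members was 0.66, against -0.01 over all genes, and 38 of 42 were above 0. For 17 members every KO DSS library was above every WT DSS library (16.4% of all genes), among them Ifit2, Ifit3b, Oas3, Oasl1, Oasl2, Mx2, Dhx58, Ifi44 and Sp100, and 20 members had an unadjusted P under 0.05, as did 21.9% of all genes. Fitting only the KO and WT DSS libraries called 12 members higher and 1 lower, with 17.3% of all genes called in that fit, and leaving out VAA DSS replicate 3 called 9 higher and 1 lower, with 15.6% of all genes called. KO against VAA under DSS had a median of 0.40, against -0.01 over all genes. KO DSS was apart above VAA DSS for 3 members (Oas1a, Oas1g and Lgals3bp, 13.7% of all genes) and below it for Ifitm3 (14.6%). Without VAA DSS replicate 2, which was high for most members, 14 members were called higher and 1 lower in KO against VAA, with 21.8% of all genes called, against 15.4% with all libraries. VAA against WT under DSS called 0 of 42 (2 had an unadjusted P under 0.05, DESeq2 also called 0), where 0.00572% of all genes were called higher and 0% lower, with a median of 0.21 and 39 of 42 above 0. Without VAA DSS replicate 2 that median was -0.17 and 7 of 42 were above 0. Oas1b was the 1 member with every VAA DSS library above every WT DSS library, as in 8.76% of all genes.

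In untreated colon edgeR called 0 of 42 members in each of the 3 genotype pairs, as it did for all genes (0%), and DESeq2 called 0 as well. Unadjusted P values under 0.05 numbered 0 in VAA against WT, 0 in KO against WT and 4 in KO against VAA. The members leaned to the VAA side: 40 of 42 log2 fold changes were above 0 in VAA against WT (median 0.33), 34 were below 0 in KO against WT (median -0.22), and 40 were below 0 in KO against VAA (median -0.59). In 23 members both untreated KO libraries were below both untreated VAA libraries (13.6% of all genes), in 10 they were below both WT libraries and in 2 above (15.8% and 15.5%), and in 11 both VAA libraries were above both WT libraries (14.6%). Without untreated VAA replicate 1, the higher of that pair for 40 members, the VAA against WT median was -0.11. Without untreated WT replicate 1, the KO against WT median was -0.01.

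Whether the DSS effect itself differed between genotypes was tested by interaction, and 0 of 42 members were called in any of the 3 interactions by edgeR or DESeq2. For KO against WT, 0% of all genes were called, the members' median was 0.94 with 37 of 42 above 0, 11 had an unadjusted P under 0.05 (9.93% of all genes did) and the smallest adjusted P was 0.35. For KO against VAA, 0.0229% of all genes were called higher and 0.0458% lower, the median was 1.05 with 38 of 42 above 0, 19 had an unadjusted P under 0.05 (14.5% of all genes did) and the smallest adjusted P was 0.21 (Oas1g, 1.59 ± 0.53). For VAA against WT, 0% of all genes were called, the median was -0.16 and 0 members had an unadjusted P under 0.05. Without VAA DSS replicate 2, KO against VAA called 7 members higher, with 4.8% of all genes called. A larger DSS effect in KO than in the other genotypes was therefore not shown by these tests for any single member with all 15 libraries, although more members were called in KO.

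Upstream of the members, the interferon genes themselves were at or near 0. Of the 21 type I and III interferon symbols listed, 15 had 0 counts in every library, Ifnb1 among them, so it was not detectable at this depth. Ifnk, an interferon of epithelia, had 18 to 79 counts per library, and Ifna16 had 0 to 18. These 2 were tested, and neither was called in any comparison. Among the receptor genes, Ifnar2 was called. Ifnar2 rose by 1.18 ± 0.28 in WT (adjusted P = 0.0089) and 1.45 ± 0.29 in VAA (0.0029), had 0.50 ± 0.28 in KO (0.28), and under DSS was lower in KO than in VAA (-1.17 ± 0.24, adjusted P = 0.0079).

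A list of 14 genes covered the induction of interferon and its control. Of these, 4 rose after DSS in WT, 3 rose and 1 fell in VAA, and 4 rose in KO. In WT, VAA and KO, 26.6%, 20.4% and 10.7% of all genes were called in either direction. In either direction the WT and VAA counts were near those shares, but the WT calls were all rises. Only 14.1%, 10.9% and 5.59% of all genes were called higher in WT, VAA and KO. Tmem173, which encodes STING, rose in all 3 genotypes, by 2.16 ± 0.31 in WT (adjusted P = 3.7e-04), 1.99 ± 0.31 in VAA (5.7e-04) and 1.13 ± 0.30 in KO (0.032), and was lower in KO than in VAA under DSS (-0.91 ± 0.25, adjusted P = 0.029). Mb21d1, which encodes cGAS, was not called and measured 3.65 to 10.5 CPM. Zbp1, a sensor of nucleic acid in the Z form, rose by 3.25 ± 0.59 in KO (adjusted P = 0.0047) and 1.62 ± 0.54 in WT (0.041). Irf1 (1.14 ± 0.31, adjusted P = 0.037) and Tlr3 (0.90 ± 0.26, adjusted P = 0.0455) rose in KO and were not called in WT or VAA, while Irf5 and Irf8 rose in WT and VAA. Mavs fell by 0.74 on the log2 scale in VAA (adjusted P = 0.019) and under DSS was higher in KO than in VAA (0.66 ± 0.18, adjusted P = 0.029).

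Of 6 negative regulators, 2 rose after DSS in WT and in VAA (Socs1 and Socs3) and 3 in KO (Socs3 and the members Isg15 and Usp18). The calls of Isg15 and Usp18 are those already counted among the 22 members. In WT, VAA and KO, 14.1%, 10.9% and 5.59% of all genes were called higher. Socs1 and Socs3 encode inhibitors of the receptor's kinases. Socs3 rose by 3.94 ± 0.45 in WT (adjusted P = 7.7e-05) and 2.54 ± 0.44 in KO (0.0037), and in VAA as well (1.8e-05). Under DSS it was lower in KO than in WT (-1.94 ± 0.34, adjusted P = 0.0087) and in VAA (-2.69 ± 0.35, adjusted P = 7.7e-04). Socs1 rose by 3.48 ± 0.60 in WT (adjusted P = 0.0012) and 3.78 ± 0.60 in VAA (6.3e-04), and had 1.76 ± 0.57 in KO (0.064). Under DSS it was lower in KO than in VAA (-1.94 ± 0.45, adjusted P = 0.012), and the value against WT was not called (-1.34 ± 0.44, adjusted P = 0.094).

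Genes known mainly for their induction by interferon gamma gave another picture. Of 19 tested, 18 were called higher after DSS in WT, 15 in VAA and 16 in KO, with medians of 2.83, 2.28 and 2.62. Of all genes, 14.1%, 10.9% and 5.59% were called higher. Their mean centred level was 1.93, 0.86 and 0.13 in WT DSS, 1.09, 2.10 and 0.47 in VAA DSS and 0.99, 0.66 and 1.01 in KO DSS, and every DSS library was above every untreated one (-1.99 to -0.54). Under DSS 1 of the 19, Gbp5, was lower in KO than in WT (-1.31 ± 0.28, adjusted P = 0.02) and in VAA (-1.53 ± 0.29, adjusted P = 0.0047), and no other was called. In these pairs 2.46% and 9.41% of all genes were called lower. Ifng, interferon gamma itself, was at 0 in all 6 untreated libraries and measured 3.21, 0.92 and 0.236 CPM in WT DSS, 0.361, 1.73 and 0 in VAA DSS, and 0.0776, 0.341 and 0.446 in KO DSS. It was called higher after DSS in WT (adjusted P = 0.0474) and not in VAA (0.13) or KO (0.3). Ifng had 108 counts in all over the 15 libraries. The library highest for Ifng in WT DSS and in VAA DSS was also the one highest for most members. In KO DSS it was not, at levels of at most 0.446 CPM, too low to order those libraries.

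Markers of other cells moved with treatment in all 3 genotypes. After DSS, T and NK cell markers were called higher for 7 of 11 in WT, 2 in VAA and 8 in KO, and neutrophil markers for 6 of 8 in WT, 8 in VAA and 5 in KO. Smooth muscle markers were called lower for 7 of 7 in WT, 6 in VAA and 4 in KO. Of 9 epithelial markers, 2 were called higher and 1 lower in WT, 0 higher and 1 lower in VAA, and 4 higher and 0 lower in KO. In WT, VAA and KO, 14.1%, 10.9% and 5.59% of all genes were called higher after DSS, and 12.5%, 9.54% and 5.06% lower. The shares of all genes called in either direction were 26.6%, 20.4% and 10.7%. Under DSS, KO against WT called 6 of 8 neutrophil and 1 of 6 fibroblast markers lower and 2 of 9 epithelial markers higher. Of all genes, 2.46% were called lower and 3.21% higher there. KO against VAA under DSS called lower 7 of 8 neutrophil, 6 of 6 fibroblast, 4 of 5 endothelial and 4 of 5 enteric glia and neuron markers. It called 2 of 10 macrophage and monocyte markers lower, and 5 of 9 epithelial and 2 of 11 T and NK cell markers higher. In that pair 9.41% of all genes were called lower and 6.01% higher. Summed T and NK cell markers were 41.4 to 45.8 CPM in KO DSS, 13.1 to 14.4 in untreated KO, 24.5 to 34.3 in WT DSS and 18.2 to 35.2 in VAA DSS. Summed epithelial markers were 12900 to 15300 CPM in KO DSS, 9150 to 11500 in untreated KO, 10100 to 10800 in WT DSS and 9210 to 11300 in VAA DSS, and summed smooth muscle markers were 538 to 1760 CPM in KO DSS, 3440 to 4000 in untreated KO, 526 to 858 in WT DSS and 621 to 2200 in VAA DSS. Summed neutrophil markers were 110 to 154 CPM in KO DSS, 78.3 to 118 in untreated KO, 330 to 415 in WT DSS and 381 to 769 in VAA DSS. In untreated WT they were 92.1 to 112 CPM and in untreated VAA 101 to 103. The median log2 fold change of the 8 markers after DSS was 7.57 in WT, 8.82 in VAA and 2.33 in KO. The sums rose by less than these medians, so they do not follow the typical marker. Of 8 markers of plasmacytoid dendritic cells, Bst2 and Il3ra were called higher after DSS in all 3 genotypes, Ly6d in WT and Runx2 in VAA. Their summed level of 178 to 239 CPM over the 15 libraries was mostly Tcf4 (126 to 192 CPM), while Il3ra was at 1.28 to 2.8 CPM in untreated and 4.13 to 8.45 CPM in DSS libraries. Siglech, a defining marker of these cells, was at 1.69 to 4.24 CPM and was not called. Of 10 macrophage and monocyte markers, 3 were called higher and 1 lower after DSS in WT, and 4 higher in VAA. In KO 1 was called higher and 1 lower. Summed macrophage and monocyte markers were 215 to 292 CPM in KO DSS and 155 to 279 in untreated KO. They were 257 to 468 CPM in WT DSS and 370 to 521 in VAA DSS. No marker of these lists was at 0 in every library, and their part in the result was not tested.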

How the data were processed

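Groups were taken from the sample labels. Estimated counts by gene symbol were deposited, made with kallisto 0.46 on mm10 per the submitters' processing notes, and the values were whole numbers already. The deposited log2 CPM table held 17531 genes and was given back by the counts within 0.018 at a prior count of 2. The sources used here do not give the transcript annotation, and estimated counts of near-identical genes can be split. The files held 0 columns of other samples.

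In R 4.3.3, genes were filtered by expression and libraries scaled by trimmed mean of M values in edgeR 4.0.16. A mean per group was fitted to the 15 libraries by quasi-likelihood (9 residual degrees of freedom, common dispersion 0.0457), and 12 contrasts were tested with Benjamini-Hochberg adjustment over 17477 genes. The script was tested on simulated data. Members, role groups, pathway and marker lists were chosen with earlier results of these data known. Values in every library are printed for up to 5 called members per comparison and direction, at least 1 member per role group, and the paralogs; of other pathway genes, those called, with interferon gamma induced genes and cell markers given mainly as counts.

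Alternatives were DESeq2 size factors, no filter, DESeq2 1.42.0, a fit of the compared groups alone, limma 3.58.1 on the deposited log2 values, a block by replicate number, a sex covariate, no male libraries, and each library left out. Summing paralog counts was chosen after seeing the data. Positions and word counts came from GENCODE on mm10, and promoters from RefSeq on GRCm38.p6. Protein sequences and raw reads were not used here. A result on 1 further gene of the pathway is not reported here.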

Additional observations from a re-analysis of the deposited data

How the results depend on the processing

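The 30 calls of single members kept their direction in every fit that was run. Counts of called members moved more, as did the share of all genes called, and the cause was not tested unless stated. With only the groups compared this share was 18.1% for DSS in KO, 39.7% in WT and 6.52% in VAA (main fit 10.7%, 26.6%, 20.4%). In such fits under DSS the share was 17.3% for KO against WT (main fit 5.67%) and 3.35% for KO against VAA (15.4%). By DESeq2, over all symbols of the count table, the share was 12.2% for DSS in VAA. Under DSS, DESeq2 gave 5.39% for KO against WT and 9.82% for KO against VAA. For DSS in KO (22 called) the count was 36 with only the groups compared, 6 with sex as a covariate, 2 without both male libraries, and 0 to 36 with 1 library left out. For DSS in WT (4 called) it was 8 with only the groups compared, 1 without both male libraries, and 2 to 7 with 1 library left out. For DSS in VAA (2 called) it was 5 by DESeq2, 1 with only the groups compared, and 1 to 4 with 1 library left out. For KO against WT under DSS (1 called) it was 3 without the filter, 8 by DESeq2, 2 by limma, 13 with only the groups compared, 0 without both male libraries, and 0 to 10 with 1 library left out. For KO against VAA under DSS (1 called) it was 4 without the filter, 4 by DESeq2, 0 with only the groups compared, and 0 to 15 with 1 library left out. The KO against VAA interaction gave 0 to 7 with 1 library left out; the other interactions, the untreated pairs and VAA against WT under DSS gave 0 in every fit. The members' median for DSS in VAA (0.26) was 0.74 without untreated VAA replicate 1, 0.01 without untreated VAA replicate 2 and -0.06 without VAA DSS replicate 2. The VAA against WT medians turned sign too: under DSS (0.21) to -0.17 without VAA DSS replicate 2, untreated (0.33) to -0.11 without untreated VAA replicate 1, and for the interaction (-0.16) to 0.28 without untreated VAA replicate 1, 0.08 without WT DSS replicate 1 and 0.02 without VAA DSS replicate 3.

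With the replicate number as a block, 28 members were called for DSS in KO (14.5% of all genes). In WT 6 were called (30.2%) and in VAA 4 (20.5%). Under DSS, 2 were called for KO against WT (6.15%) and 4 for KO against VAA (15.1%). All 30 calls of single members were kept. The labels do not pair libraries by number: in 33 pairs of equal number, residuals correlated at -0.20 to 0.36 and above 0.1 in 8 pairs, and for 8 of 15 libraries the nearest library had the same number.

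With 2 untreated libraries per genotype, leaving out either one leaves an arm of 1, which is assumed to vary like the other groups. Members of low count, such as Oas2 in untreated colon, have wide standard errors.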
